A study of Mus musculus with 8 samples.

Results

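The genes described here encode proteins that neutrophils pack into their granules or carry with them on the same late maturation programme. They are Ngp, Ltf, Camp, Lcn2, Mmp8, Cd177, Pglyrp1, Wfdc21, Ifitm6 and Retnlg. The list was drawn up by name with earlier results of these data known, and all 10 were present in each of the 8 count tables, out of 21755 genes named in any table. The data were single-cell RNA sequencing of CD45+ cells, that is leukocytes, sorted from full-thickness wounds in the back skin of C57BL/6 mice (C57BL/6J in the study's methods). In the diabetic group, mice at 4 weeks of age had received streptozotocin (STZ, a toxin of pancreatic beta cells) at 120 mg/kg after 12 h of fasting, and were used when blood glucose was at or above 16.5 mmol/L after 7 days. The control group had wounds without diabetes, and the sources used here name no treatment given to it. Wounds of 5 mice were pooled for each library, with 1 library for each group on days 1, 3, 5 and 7 after wounding. A single day therefore compares a pair of pools and has no replicate, and only the fits over several days have a test.

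Neutrophils form their granules in the bone marrow in a fixed order. Primary granules with myeloperoxidase and elastase come first, secondary granules with lactoferrin, cathelicidin and lipocalin 2 follow, and gelatinase granules and secretory vesicles come last. Transcripts of granule proteins are highest in the maturing cells of the marrow and decline once the cell leaves for the blood and the tissue, while the proteins stay stored for release. In a wound, released granule proteins starve bacteria of iron, break down collagen and bind bacterial cell wall, and neutrophils that linger are a known feature of wounds that heal slowly. C/EBP-epsilon, a transcription factor of the CCAAT/enhancer binding protein family, is known to drive secondary granule genes.

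The members lie on 5 chromosomes. By the GENCODE annotation of GRCm38, all are protein-coding genes. Ngp (chr9:110419747-110423012, + strand), Ltf (chr9:111019271-111042767, + strand), Camp (chr9:109847379-109849617, - strand) and Mmp8 (chr9:7558456-7568485, + strand) are on chromosome 9. Cd177 (chr7:24743983-24760311, - strand), Pglyrp1 (chr7:18871331-18890459, + strand) and Ifitm6 (chr7:141015699-141017924, - strand) are on chromosome 7. Lcn2 (chr2:32384633-32388252, - strand), Wfdc21 (chr11:83746940-83752642, + strand) and Retnlg (chr16:48872621-48874496, + strand) are each alone on their chromosome. RefSeq promoters of 300 bases, from 250 before to 50 after the start of the gene on GRCm38.p6, were given for 9 of the 10. The letters TTGCNNAA, a C/EBP motif, were searched on both strands (TTNNGCAA on the other). They were found in 5 of these 9 promoters, those of Ngp, Ltf, Lcn2, Mmp8 and Retnlg, and in 10.8% of the 32851 promoters of this length. The 250 bases before the start are shown for Ngp, Lcn2 and Retnlg, as 3 of the 5 with a match, Ngp and Retnlg having the steepest slopes over days and Lcn2 a ratio above 1 on every day in the results below, with the match in capitals and each sequence written 5′ to 3′ on the strand of its gene.
Ngp: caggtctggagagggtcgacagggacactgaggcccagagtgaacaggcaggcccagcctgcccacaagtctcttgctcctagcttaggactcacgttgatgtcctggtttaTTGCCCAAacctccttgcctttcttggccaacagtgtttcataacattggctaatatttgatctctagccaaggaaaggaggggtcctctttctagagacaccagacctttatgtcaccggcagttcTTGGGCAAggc
Lcn2: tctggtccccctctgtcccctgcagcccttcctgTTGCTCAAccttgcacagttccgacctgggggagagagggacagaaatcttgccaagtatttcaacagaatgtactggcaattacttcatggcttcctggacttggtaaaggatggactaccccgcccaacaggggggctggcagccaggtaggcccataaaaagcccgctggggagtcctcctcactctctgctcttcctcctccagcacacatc
Retnlg: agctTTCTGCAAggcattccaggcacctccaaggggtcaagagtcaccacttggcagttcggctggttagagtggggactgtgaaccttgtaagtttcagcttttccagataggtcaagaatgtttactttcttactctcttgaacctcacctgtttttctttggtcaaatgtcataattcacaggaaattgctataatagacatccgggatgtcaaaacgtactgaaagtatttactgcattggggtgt
These windows are chr9:110419558-110419807 for Ngp (+ strand), chr2:32387740-32387989 for Lcn2 (- strand) and chr16:48872358-48872607 for Retnlg (+ strand), and the RefSeq starts they end at can differ from the GENCODE ones above. Ngp had 2 matches, TTGCCCAA beginning 138 bases and TTGGGCAA beginning 11 bases before the start. Lcn2 had TTGCTCAA beginning 216 bases and Retnlg TTCTGCAA beginning 246 bases before it. Ltf had TTGGGCAA beginning 75 bases and Mmp8 TTGCTCAA beginning 19 bases before the start. The letters GAGGAA, the core of a PU.1 site (TTCCTC on the other strand), were found in 5 of the 9 promoters and in 28.3% of all of them. A match is a description of letters in these windows and was not tested against the expression values.

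The libraries held 3273 to 5440 cells and 18814802 to 32956113 UMIs after filtering (unique molecular identifiers, each a counted RNA molecule). The control library of day 5 stands apart, with 28.5% of its barcodes removed by the filter against 1.00 to 10.6% in the others, and with a median of 8219 UMIs per cell. Cells were clustered with the 10 members left out, and 13891 cells in 5 clusters were named neutrophil-like from markers such as S100a8, S100a9, Csf3r and Cxcr2, all 10 of which were detected in each of these clusters. Their share was 51.3, 49.6, 45.9 and 21.1% in the diabetic libraries of days 1, 3, 5 and 7, and 60.1, 42.1, 8.19 and 23.7% in the control libraries. The control library of day 5 thus rests on 268 neutrophil-like cells, against 772 to 2696 in the others.

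All values below are UMIs per 1000000 UMIs of the cells named (CPM), with exact 95% Poisson intervals that cover counting error only. The summed level of the 10 genes was highest in neutrophil-like cells in all 8 libraries, at 1286 to 20403 CPM. Of the UMIs of a member, neutrophil-like cells held 94.3% for Ngp, 91.8% for Retnlg, 89.8% for Camp, 87.4% for Lcn2, 87.1% for Ltf, 84.0% for Wfdc21, 81.8% for Pglyrp1, 71.5% for Mmp8, 57.4% for Cd177 and 53.2% for Ifitm6 over all libraries. By library the share ran from 77.0 to 96.5% for Ngp, 21.8 to 64.5% for Ifitm6 and 15.6 to 66.6% for Cd177. It ran from 29.2 to 79.6% for Mmp8 and from 35.5 to 92.8% for Pglyrp1. T cell-like cells, which should lack most of these genes, were taken as the background of free RNA. Their summed level was 1532, 517, 199 and 232 CPM in the diabetic libraries of days 1, 3, 5 and 7 and 931, 214, 85.9 and 152 CPM in the control libraries, so the background was highest on day 1, as was the level in neutrophil-like cells. The summed level in neutrophil-like cells was 8.46 to 23.6 times that in T cell-like cells of the same library.

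**Figure D1:**
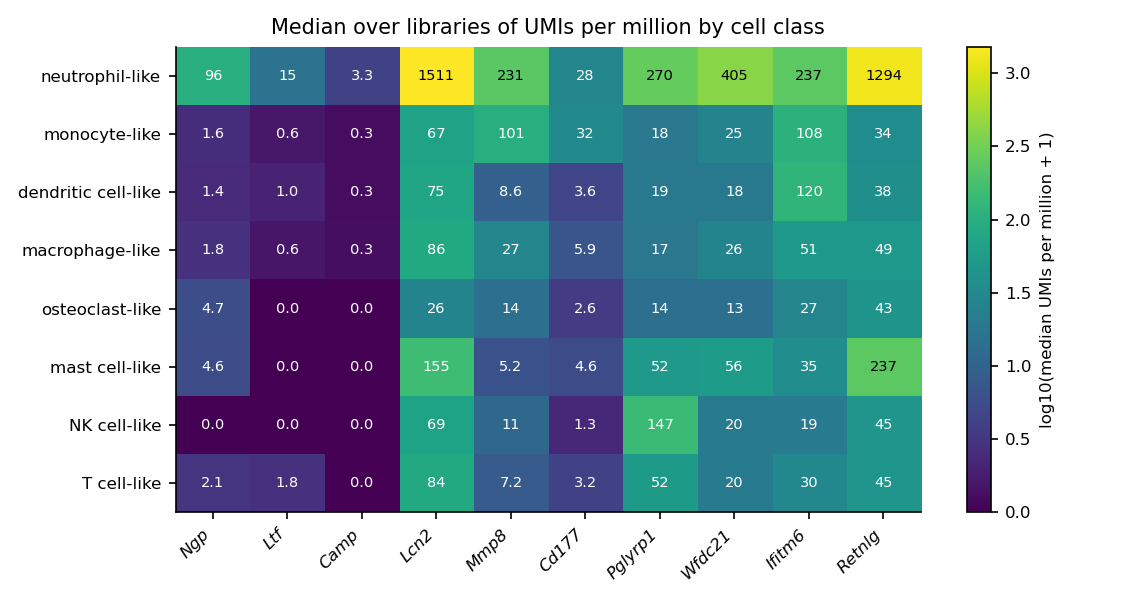
Median over libraries of CPM for each member (columns) in each cell class (rows), with the value printed in each tile and the colour on a log10 scale with 1 added. Neutrophil-like cells have the highest median for 9 of the 10 genes, and Cd177 is the exception, at 27.7 in neutrophil-like against 32.0 in monocyte-like cells.

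Some members also had levels above those of T cell-like cells in other classes. Cd177, Ifitm6, Mmp8 and Wfdc21 were higher in monocyte-like than in T cell-like cells in 8 of 8 libraries. Cd177, a surface glycoprotein stored in secondary granules, had 123 CPM in monocyte-like cells of the diabetic library of day 1 and 95.5 CPM in those of the control library of day 3, where neutrophil-like cells had 27.8 CPM. Ifitm6, an interferon-induced transmembrane protein family member, had a median of 108 CPM in monocyte-like and 120 CPM in dendritic cell-like cells, against 29.6 CPM in T cell-like cells. Mmp8, neutrophil collagenase, had medians of 101 CPM in monocyte-like and 7.24 CPM in T cell-like cells, and Wfdc21 had 25.4 and 20.2 CPM. Pglyrp1, a peptidoglycan recognition protein, had a median of 147 CPM in NK cell-like and 52.4 CPM in T cell-like cells. Where a library held at least 20 of them, NK cell-like cells exceeded neutrophil-like cells for Pglyrp1 in the diabetic libraries of days 5 and 7, at 201 and 113 CPM against 147 and 87.1 CPM. Ltf and Camp stayed at or under 5.60 and 0.317 CPM in T cell-like cells. In the control library of day 7, Ltf stood at 5.60 CPM in T cell-like and 5.75 CPM in neutrophil-like cells, so it was at background there, and its ratio of groups on that day is read against that. In the diabetic library of day 7, Pglyrp1 stood at 76.1 CPM in T cell-like and 87.1 CPM in neutrophil-like cells.

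Lcn2 encodes lipocalin 2, a secondary granule protein that binds bacterial siderophores. In neutrophil-like cells Lcn2 stood at 4837, 1652, 1642 and 1380 CPM on days 1, 3, 5 and 7 in the diabetic libraries and at 2792, 618, 649 and 459 CPM in the control libraries. The diabetic library was higher on 4 of 4 days, and the fall came between days 1 and 3 in both groups, with little change from day 3 to day 5. Ngp encodes neutrophilic granule protein, a cystatin-like secondary granule protein. It stood at 1421, 241, 9.13 and 5.36 CPM in the diabetic and at 95.3, 97.6, 101 and 10.2 CPM in the control libraries. The level of day 1 was 265 times that of day 7 in the diabetic and 9.31 times in the control libraries, and the lines cross between days 3 and 5. The control values of days 3, 5 and 7 rest mostly on 1 cell each, and without the cells richest in a member Ngp stood at 1282 CPM on day 1 and 4.06 CPM on day 7 in the diabetic and at 86.1 and 3.44 CPM in the control libraries, with no crossing.

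The values of Ltf and Camp rest on few UMIs. Ltf, lactoferrin, the iron-binding protein of secondary granules, stood at 33.3, 12.9, 17.3 and 14.4 CPM in the diabetic and 6.92, 28.6, 16.5 and 5.75 CPM in the control libraries, from 18 to 231 UMIs. Camp, the cathelicidin antimicrobial peptide, stood at 18.8, 3.20, 2.32 and 4.02 CPM in the diabetic and 3.33, 11.6, 0.915 and 0.719 CPM in the control libraries, from 1 to 130 UMIs. Both were highest in the diabetic library on day 1 and in the control library on day 3, within the neutrophil-like cells of that group.

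Mmp8 and Cd177 were highest in the diabetic library of day 1. Mmp8 stood at 1231, 592, 173 and 232 CPM in the diabetic and 337, 189, 230 and 217 CPM in the control libraries, so the groups were apart on days 1 and 3 and close on days 5 and 7. Cd177 stood at 359, 66.2, 27.6 and 8.04 CPM in the diabetic and 56.6, 27.8, 10.98 and 6.47 CPM in the control libraries. Cd177 fell from each day to the next in both groups.

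Retnlg, Wfdc21, Ifitm6 and Pglyrp1 were lower on day 7 than on day 1 in both groups. Retnlg, which encodes the secreted resistin-like gamma, stood at 8947, 3679, 711 and 448 CPM in the diabetic and 5768, 1877, 497 and 236 CPM in the control libraries, a fall of 19.97-fold and 24.4-fold from day 1 to day 7. Wfdc21, a whey acidic protein domain gene, stood at 1855, 974, 337 and 231 CPM in the diabetic and 984, 473, 208 and 136 CPM in the control libraries. For both genes the diabetic library was higher on every day, except that with cells classed by their own marker score Retnlg was lower on day 5, at a ratio of 0.890. Ifitm6 stood at 1037, 393, 163 and 90.4 CPM in the diabetic and 311, 368, 123 and 85.3 CPM in the control libraries, so the widest gap was on day 1. Pglyrp1 stood at 664, 428, 147 and 87.1 CPM in the diabetic and 351, 389, 188 and 129 CPM in the control libraries, with the diabetic library the higher on days 1 and 3 and the lower on days 5 and 7.

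**Figure D2:**
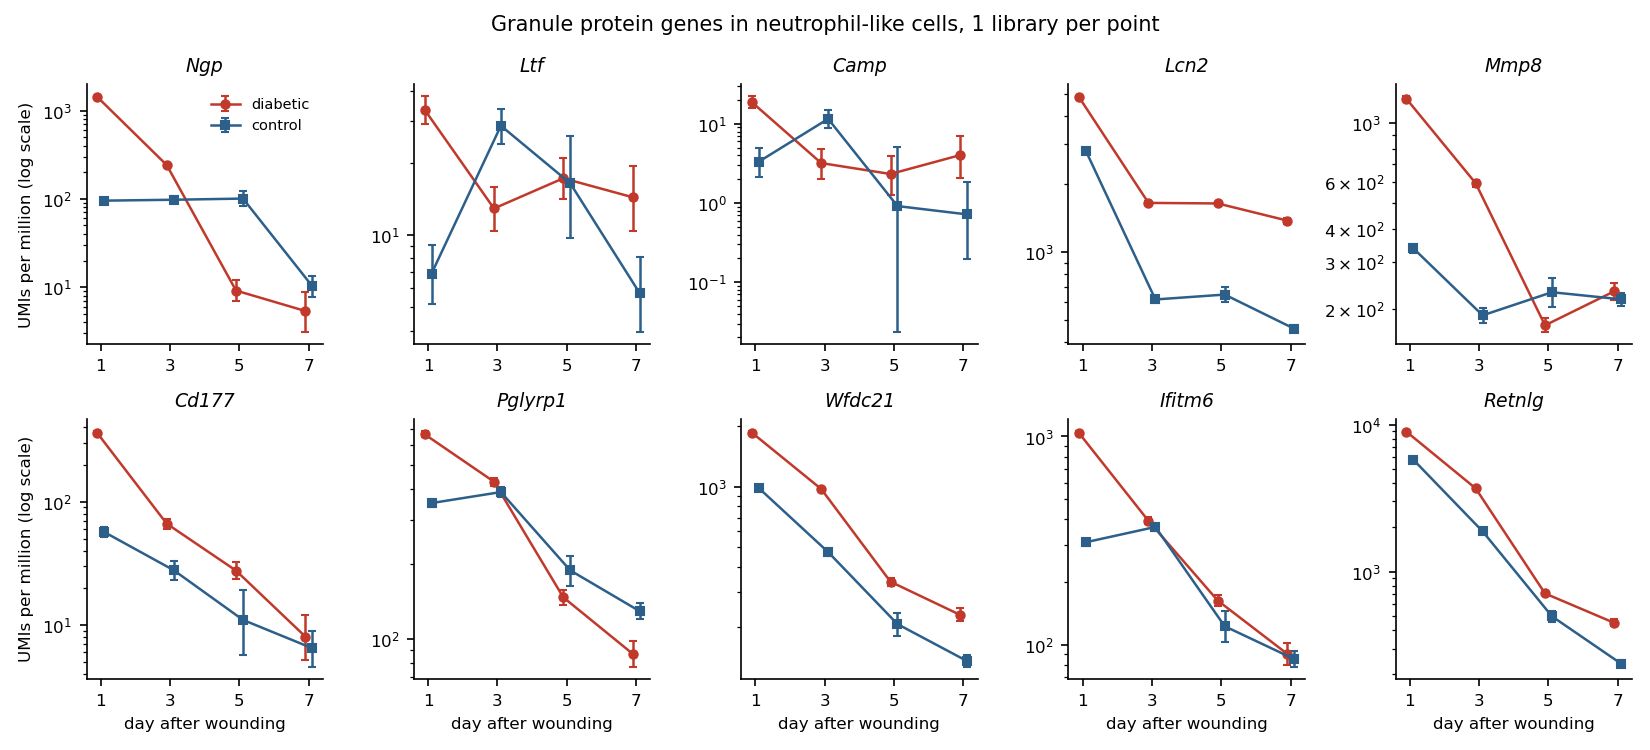
CPM of each member in neutrophil-like cells (log scale) against the day after wounding, for the diabetic (circles) and control (squares) libraries, 1 library per point, with exact 95% Poisson intervals. Lcn2, Cd177, Wfdc21, Ifitm6 and Retnlg are higher in the diabetic library on every day with cells named by cluster (not so for Ifitm6 and Retnlg on day 5, at ratios of 0.945 and 0.890, and for Cd177 and Ifitm6 on day 7, at 0.839 and 0.963, with cells classed by their own marker score), while the lines of Ngp, Ltf, Camp, Mmp8 and Pglyrp1 cross.

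The change over days was tested with a slope shared by both groups over the 8 libraries. All 10 members had a negative slope past the threshold (edgeR quasi-likelihood test, Benjamini-Hochberg adjusted p under 0.05 over 10246 genes), where 20.7% of all genes tested had one, and their median slope was -0.61 log2 per day against 0.02 for all genes. Without scaling factors between libraries the median slope of all genes moved to 0.17, and the split of calls moved from 2274 positive and 2123 negative to 4822 and 501, with 9 members still called and Ltf, at -0.16 log2 per day, no longer past the threshold. Ngp fell by 1.18 log2 per day (SE 0.19, adjusted p = 0.00074), Retnlg by 0.93 (SE 0.07, adjusted p = 1.4e-05) and Cd177 by 0.88 (SE 0.07, adjusted p = 1.4e-05). Lcn2 fell by 0.52 log2 per day (SE 0.08, adjusted p = 0.00080), and Ltf had the smallest slope of the members, at -0.31 (SE 0.10, adjusted p = 0.022). Without the diabetic library of day 1, the slopes of Ltf and Camp had adjusted p = 0.19 and 0.11 and the other 8 members stayed past the threshold. In that fit 1749 of 10772 genes tested had a negative slope past the threshold. The slope of Ltf also had adjusted p = 0.074 without the diabetic and 0.11 without the control library of day 7. In these cells the summed level of 8 macrophage markers was 389, 2607, 1854 and 8604 CPM on days 1, 3, 5 and 7 in the diabetic and 637, 2041, 8042 and 10949 CPM in the control libraries, with 0 of the 8 undetected in any library. That of 8 dendritic cell markers was 999 to 8957 CPM and 736 to 6834 CPM in the diabetic and control libraries, and that of the 10 neutrophil markers was lower on day 7 than on day 1 in both groups. The part of these markers in the slopes was not tested. With each cell given a class by its own marker score and not by its cluster, 7 members were called, Ltf, Camp and Mmp8 were not, and the members' median slope was -0.37 log2 per day. With that naming, 437 of 8658 genes tested had a negative slope past the threshold.

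The difference between diabetic and control neutrophil-like cells over the 4 days, with day as a factor, passed the threshold for 0 of the 10 members (edgeR, 10897 genes tested), where 0.0275% of all genes were called higher in the diabetic group. All 10 members had a positive estimate, with a median of 0.93 log2 against -0.0034 for all genes, and 6 had an unadjusted p under 0.05 by the same test, as did 1297 of the 10897 genes. Without scaling factors the median of all genes moved to -0.17 and that of the members to 0.79, with all 10 still positive. Without day 1 the members' median was 0.58 with 9 of 10 positive (Ngp at -0.64), and with each cell given a class by its own marker score it was 0.68 with 9 of 10 positive (Pglyrp1 at -0.17). Cd177 was at 1.64 (SE 0.30, adjusted p = 0.18), Lcn2 at 1.47 (SE 0.31, adjusted p = 0.26), Wfdc21 at 1.03 (SE 0.24, adjusted p = 0.26), Mmp8 at 0.99 (SE 0.31, adjusted p = 0.31) and Retnlg at 0.94 (SE 0.30, adjusted p = 0.32). Ngp was at 0.58 with an SE of 0.86, and Pglyrp1 at 0.22 with an SE of 0.24, so neither differed by more than its spread between days. The Ngp estimate rests on single cells of the control libraries, and was 3.53 (SE 0.60) without the cells richest in a member. DESeq2 called 5 members higher in the diabetic group, which were Lcn2, Cd177, Wfdc21, Retnlg and Mmp8, where it called 68 of 5404 genes higher and 17 lower. The p-values measure the spread between these pools and not between single mice.

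**Figure D3:**
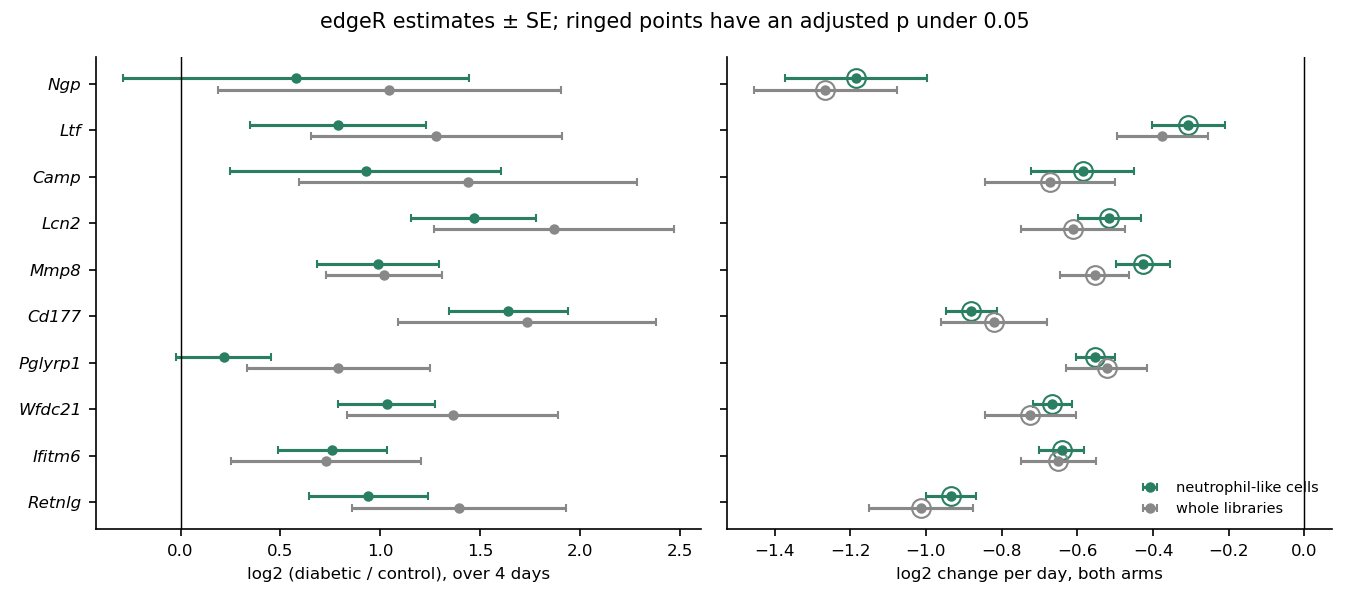
Estimates of edgeR for each member with their standard errors, for neutrophil-like cells and for whole libraries. The left panel is the log2 ratio of diabetic to control over 4 days and the right panel the log2 change per day. Ringed points have an adjusted p under 0.05, and these are in the right panel, 10 for neutrophil-like cells and 9 for whole libraries.

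A slope that differs between the groups was tested as well. It passed for 0 of 10 members and 0% of the 10897 genes tested (edgeR), where 3 members and 321 genes had an unadjusted p under 0.05 and DESeq2 called 3 genes, none of them a member. The difference in slope for Ngp was -0.97 log2 per day (SE 0.21, adjusted p = 0.79), and -0.63 (SE 0.25, adjusted p = 0.9997) without the cells richest in a member, where the control library also fell from day 1 to day 3. Without the filter on low genes Ngp was called (-0.98, adjusted p = 3.9e-09), among 21 genes.

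Day by day, the ratio of diabetic to control is a description of a pair of pools. The 10 members over 4 days give 40 ratios, of which 33 were above 1, 28 had a counting interval wholly above 1 and 7 had one wholly below 1. No such counts over all genes are given here, so these do not show anything particular to the members. The summed level had ratios of 1.91 (interval 1.89 to 1.92), 1.97 (1.94 to 2.003), 1.595 (1.53 to 1.67) and 1.94 (1.88 to 2.01) on days 1, 3, 5 and 7. Retnlg and Lcn2 made up most of this sum in each library. On day 1 they held 61982 and 33510 of 141342 UMIs in the diabetic library, and 43324 and 20967 of 80401 in the control library. On day 7 they held 1338 and 4121 of 7468 UMIs, and 1315 and 2556 of 7158. The ratio of the sum thus mostly follows these genes and does not stand for each member. Lcn2 had ratios of 1.73, 2.67, 2.53 and 3.01, Retnlg 1.55, 1.96, 1.43 and 1.90, and Wfdc21 1.89, 2.06, 1.62 and 1.70, and these 3 had intervals above 1 on all days. With each cell given a class by its own marker score, Retnlg was at 0.890 and Ifitm6 at 0.945 on day 5, Wfdc21 at 1.02 and the summed level at 1.03. The summed level of the 10 neutrophil markers in the same cells was 61399, 35606, 32747 and 19795 CPM in the diabetic and 52561, 40735, 19181 and 17046 CPM in the control libraries, and its part in these ratios, like that of the macrophage markers given above, was not tested. On day 1 the ratio was 14.9 (13.8 to 16.1) for Ngp, 6.34 (5.71 to 7.04) for Cd177, 5.64 (3.65 to 9.03) for Camp, 4.82 (3.55 to 6.64) for Ltf, 3.65 (3.49 to 3.82) for Mmp8 and 3.34 (3.18 to 3.50) for Ifitm6. All 10 members were above 1 on day 1, likewise without a count over all genes beside it. Mmp8 was still at 3.14 (2.92 to 3.37) on day 3 and was at 0.751 (0.654 to 0.865) on day 5. Pglyrp1 was at 1.10 (1.04 to 1.17) on day 3, 0.779 (0.669 to 0.911) on day 5 and 0.674 (0.583 to 0.778) on day 7. With the level of T cell-like cells subtracted from both libraries, the ratio of the summed level was 1.93, 1.95, 1.56 and 2.001 on the 4 days.

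**Figure D4:**
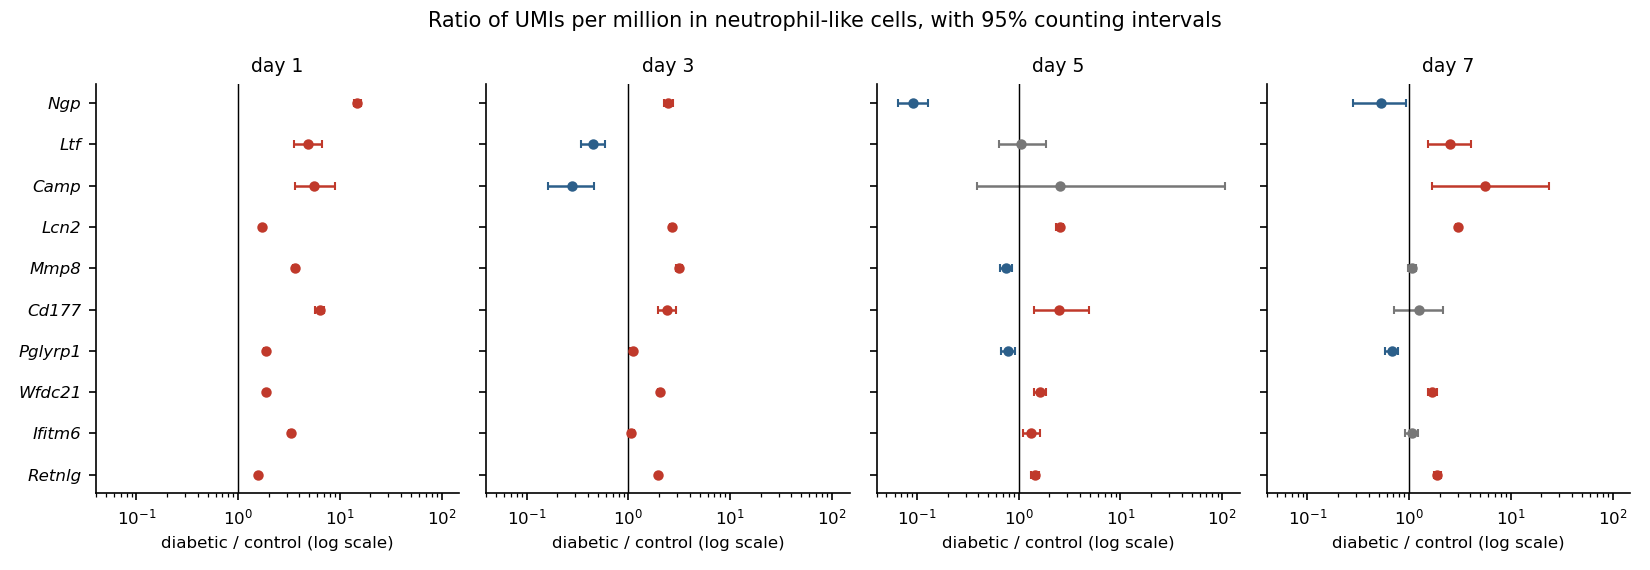
Ratio of diabetic to control CPM in neutrophil-like cells (log scale) for each member on each day, with exact 95% intervals that cover counting error only. Red points have an interval above 1, blue points one below 1 and grey points one that holds 1. All 10 points of day 1 are red, and blue points appear for Ltf and Camp on day 3 and for Ngp and Pglyrp1 on days 5 and 7, with Mmp8 blue on day 5. No such count over all genes is shown.

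The ratios of Ngp, Ltf and Camp below 1 rest on single cells. In the control library of day 3, 1 cell held 293 of the 481 Ngp UMIs, 81 of the 141 Ltf UMIs and 37 of the 57 Camp UMIs. In the control library of day 5, 1 cell with 17207 UMIs held 105 of the 110 Ngp UMIs. In the control library of day 7, 1 cell held 38 of the 57 Ngp UMIs. In the diabetic library of day 1 the 9844 Ngp UMIs were spread over 606 cells. With the cell richest in each of the 10 members left out of every library, an alternative chosen after seeing the data, the Ngp ratio was 14.9, 34.6, 6.77 (interval 1.14 to 274) and 1.18 (0.523 to 2.56) on days 1, 3, 5 and 7, in place of 14.9, 2.47, 0.0908 and 0.523. The Ltf and Camp ratios of day 3 became 1.28 and 0.973, in place of 0.452 and 0.276, with intervals that hold 1. The Ngp level of the control libraries of days 3 and 5 then stood at 6.31 and 0.938 CPM, and that of the diabetic libraries at 219 and 6.35 CPM. Since these cells were chosen by the members' own UMIs, and are a larger share of a library with few neutrophil-like cells, such as that of control day 5, the values without them are a description and not a test.

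Shares of cells with a UMI were taken after thinning each cell to 1000 UMIs, which left out 0.0907 to 7.55% of the neutrophil-like cells. Ngp was seen in 17.9% of neutrophil-like cells of the diabetic library of day 1, 6.48% on day 3, 0.945% on day 5 and 0.672% on day 7. In the control libraries it was seen in 4.20, 0.530, 0.397 and 0.454% of them. T cell-like cells, with median depths of 3325 to 4394 UMIs against 2156 to 2885, gave 5.00% for Ngp in the diabetic and 0.990% in the control library of day 1, and 0 to 0.621% in the others. Lcn2 was seen in 70.7, 52.0, 49.2 and 55.8% of neutrophil-like cells of the diabetic libraries and in 68.1, 28.4, 33.3 and 37.9% of those of the control libraries, against 0.847 to 18.0% of T cell-like cells. On day 1 the share of Lcn2-positive cells was thus close in both groups, while the level was 1.73-fold higher in the diabetic library. Retnlg was seen in 69.7, 54.7, 22.2 and 20.6% of the diabetic and 65.7, 41.7, 23.4 and 19.9% of the control cells. On day 1, T cell-like cells had a Retnlg UMI in 27.0% of the diabetic and 27.7% of the control library, and in 0 to 19.9% on the later days. Before thinning, Lcn2 was seen in 36.8 to 79.1% and Ngp in 0.888 to 24.7% of neutrophil-like cells.

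Several members were seen together most often on day 1 in the diabetic library. There, 22.7% of the thinned neutrophil-like cells had a UMI of at least 5 of the 10 members, against 9.16% in the control library of that day. Of T cell-like cells, 1 of 100 in the diabetic library of day 1 and 0 of 101 to 601 in each of the others had a UMI of at least 5 members, where exact 95% upper bounds were 5.45% and 0.612 to 3.59%. The share was 11.6 and 2.86% on day 3, 0.890 and 3.17% on day 5 and 0.672 and 0.908% on day 7, for the diabetic and control libraries in turn. Cells with UMIs of 2 or more of Ngp, Ltf and Camp numbered 21 of 2265 in the diabetic library of day 1 and 0 to 2 in each of the others. The tenth of cells with the most member UMIs held 37.4 to 48.3% of them in every library.

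The level differed between the neutrophil-like clusters. Cluster 8, which had Ngp, Retnlg, Lcn2 and Wfdc21 among its leading genes although no member was used in clustering, held 32.0, 8.35, 15.7 and 0.777% of the neutrophil-like cells of the diabetic libraries and 29.6, 1.78, 1.87 and 0.272% of those of the control libraries. Cluster 4 held 57.5% of the diabetic and 88.9% of the control cells on day 7. Its summed level was 2321 CPM over all libraries, but 11220 CPM in the diabetic and 7799 CPM in the control library of day 1. Immunoglobulin genes were among the leading genes of cluster 2 (Igkc, Igha and Jchain) and of cluster 4 (Ighg2b and Igkc). Over all libraries cluster 2, led by Cxcr2, was at 9729 CPM, and cluster 3, led by Il23a, Il1a, Tnf and Ccl3, at 5700 CPM. These pooled levels mix days and do not rank the clusters. Cluster 4 lay above cluster 3 in the diabetic libraries of days 1, 3 and 7 and the control library of day 7. It lay below cluster 3 in the others. On day 1 the summed level was 29158 CPM in cluster 8 of the diabetic and 13146 CPM in that of the control library, and 26732 against 12731 CPM in cluster 2. In cluster 3 it was 9816 against 10106 CPM on that day, a ratio of 0.971 (0.951 to 0.992), with Retnlg at 0.796 (0.773 to 0.819) and Lcn2 at 0.997 (0.957 to 1.04). On day 3 the ratio was above 1 in all 5 clusters, from 2.04 in cluster 2 to 3.98 in cluster 8. On day 5 it was 0.758 in cluster 2, 2.69 in cluster 3 and 1.52 in cluster 4, and cluster 2 of the control library then held 65 cells, with 107 of the 110 Ngp UMIs of that library's neutrophil-like cells. Retnlg was at 0.769 (0.685 to 0.865) in cluster 2 on that day, and Lcn2, Wfdc21 and Ifitm6 were at 0.954, 0.840 and 0.788 with intervals that hold 1. On day 7 it was 4.86 in cluster 2, 2.47 in cluster 3, 1.90 in cluster 4 and 1.49 in cluster 11. For Ngp on day 1 the ratio within a cluster ran from 4.53 in cluster 3 to 23.2 in cluster 8.

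**Figure D5:**
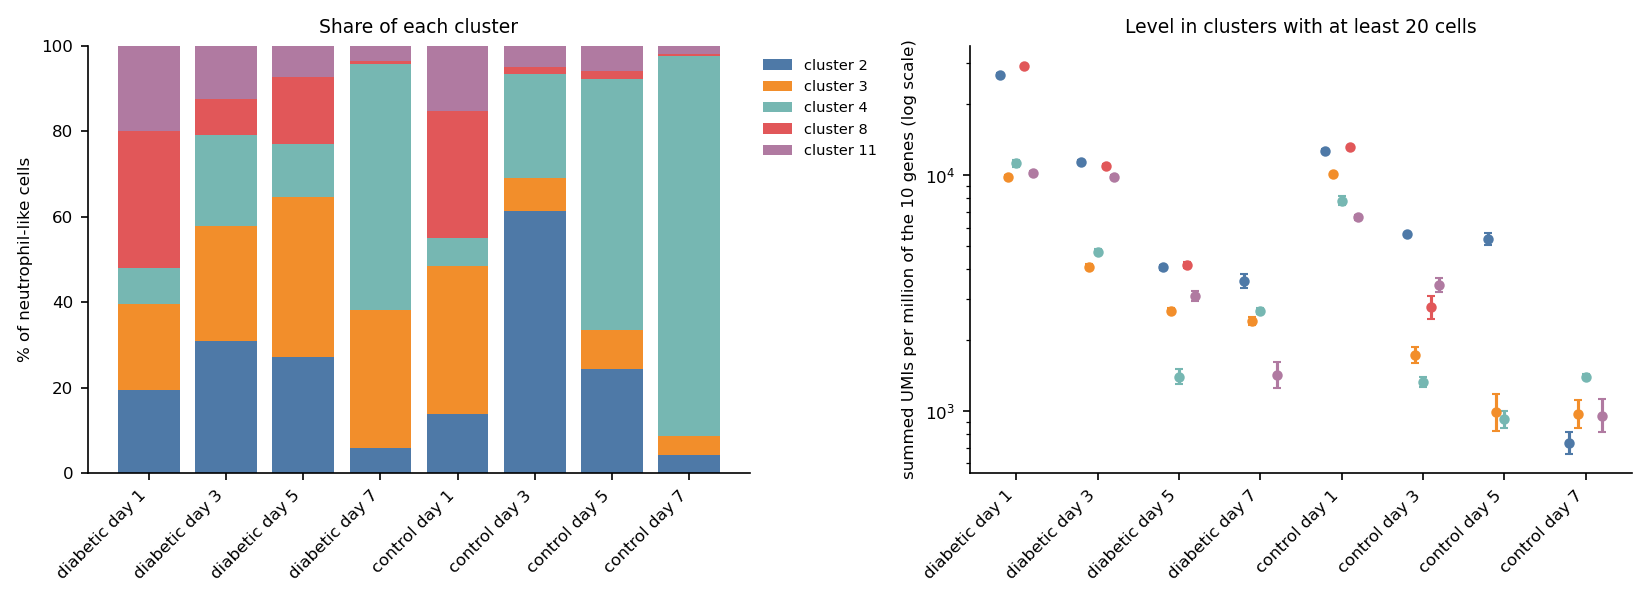
Left, the share of each neutrophil-like cluster among the neutrophil-like cells of each library. Right, the summed CPM of the 10 members in each cluster with at least 20 cells in that library (log scale), with exact 95% Poisson intervals. Cluster 8 takes 32.0% of the diabetic and 29.6% of the control cells on day 1, and clusters 2 and 8 lie highest on that day in both groups.

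In whole libraries, the level of a member moves with the share of neutrophils as well as with the RNA per neutrophil, which cannot be told apart there. The summed level was 8323, 2731, 1084 and 537 CPM in the diabetic and 4912, 1277, 131 and 353 CPM in the control libraries on days 1, 3, 5 and 7. The gap was widest on day 5, at 8.28-fold, the day on which neutrophil-like cells were 45.9% of the diabetic and 8.19% of the control library. Lcn2 was 16.6-fold apart on that day, at 510 against 30.7 CPM. Over the 4 days, 0 of 10 members passed the test of diabetic against control (edgeR), as did 0% of the 13857 genes tested, with 5 members and 1521 genes at an unadjusted p under 0.05 and 92 genes but 0 members called by DESeq2. The slope over days was negative and past the threshold for 9 of 10 members, against 6.89% of the 13332 genes tested. Ltf, at -0.38 log2 per day (SE 0.12, adjusted p = 0.076), was the exception. Without the diabetic library of day 1, the diabetic library of day 7 or the control library of day 1, 0 members were called, and calls over all genes fell from 1378 to 11, 3 and 1. The members' median slope was then -0.61, -0.68 and -0.67 log2 per day against -0.66 with all libraries. In these fits (edgeR) 8, 10 and 10 members had an unadjusted p under 0.05, as did 2731 of 13798, 2935 of 13655 and 2457 of 13814 genes tested. Without the control library of day 7, 7 members were called, where 174 of 13651 genes tested had a negative slope past the threshold.

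Other genes of the granule and neutrophil programmes were taken from lists of 6 to 14 genes, and their counts stand beside 20.7% of all genes with a negative and 22.2% with a positive slope past the threshold. Of 6 primary granule genes, Mpo, Elane, Ctsg, Ms4a3 and Prss57 were too low to be tested in neutrophil-like cells, with at most 2.76 CPM in any library. Prtn3, proteinase 3, fell by 0.43 log2 per day (adjusted p = 0.034). Of 14 other granule and vesicle genes, 10 fell over days and 1, Lyz2, rose by 0.25 log2 per day (adjusted p = 0.0074), with a median slope of -0.29. Mmp25, a membrane-bound metalloproteinase of neutrophils, fell by 0.44 log2 per day and Mmp9, gelatinase B, by 0.45. Chil3, a chitinase-like secreted protein, fell by 0.52 log2 per day, and its estimate for diabetic against control was 2.17 log2 (adjusted p = 0.26). Of 10 genes of activated neutrophils, such as Il1b and Acod1, 9 fell, with a median slope of -0.36. Of 6 cycling genes, 0 fell and 2, Top2a and Stmn1, rose. Of 6 transcription factors of granulopoiesis, Cebpb, Cebpd and Gfi1 fell by 0.26, 0.23 and 0.32 log2 per day and Cebpa rose by 0.13. Cebpe, which encodes C/EBP-epsilon, stood at 1.00 to 2.74 CPM, with a slope of -0.23 (adjusted p = 0.092). In the same cells the summed level of 5 osteoclast-like markers went from 12.8 to 286 CPM between days 1 and 7 in the diabetic libraries. It went from 12.0 to 998 CPM in the control libraries. The part of these markers, and of the macrophage markers given above, in the slopes of these lists was not tested. In the test of diabetic against control, 0 genes of these lists were called, where 0.0275% of all genes were called higher in the diabetic group, and the median estimate was 0.70 log2 for the activated list and 0.11 for the other granule and vesicle genes.

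Over the 8 libraries, each member was compared with the mean of the other 9 on the log2 CPM scale of neutrophil-like cells. Pearson's r was highest for Ifitm6, at 0.99, and Cd177, at 0.98, and lowest for Ltf, at 0.73. Among 10887 other genes, the 10 most like the mean of the members were Mmp25, Dtx3l, Arhgdib, Prkab1, Mapk13, Zmynd11, Zfand2b, Ppp1r12a, Scrg1 and Unc45a, with r from 0.97 to 0.98. Mmp25 stood at 46.8, 19.9, 13.8 and 14.1 CPM in the diabetic and 22.8, 17.6, 11.9 and 8.09 CPM in the control libraries. These values are descriptive, since all 8 points share their scaling and the course over days.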

How the data were processed

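The authors sorted CD45+ cells, sequenced 1 library per group and day, and deposited 8 tables of UMI counts per gene and cell, without normalization. The paper's methods name UMI-tools and STAR, and the submitters' processing notes name fastp 0.20.1 and mm9. Coordinates here are those of GRCm38 and were not used on the counts. Cells are named by serial numbers, so barcodes shared between libraries could not be counted.

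Cells with more than 200 genes and under 20% mitochondrial UMIs were kept (35215 of 38959) and clustered without the members (scanpy 1.11.5, Leiden, resolution 0.8) into 19 clusters, of which 1, with 1974 cells, stayed unnamed. The doublet caller marked 105 cells (0.298%) and so has not worked. No doublets were removed. UMIs were summed per library and class and tested with edgeR 4.0.16 (quasi-likelihood F test, TMM scaling, filterByExpr, Benjamini-Hochberg), with DESeq2 1.42.0 as an alternative, in R 4.3.3. Scripts were tested on simulated data. Intervals are exact, cover counting error only, and treat UMIs as independent. UMIs are not scaled by length, and whether levels of different genes are on 1 scale was not tested.

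The members and the gene lists were chosen with earlier results of these data known, and 5 members are the marker genes the paper lists for a single neutrophil cluster. The genes named are the members, the lists and the 10 genes most like the members by Pearson's r. The result of 1 further gene list is not reported here.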

Additional observations from a re-analysis of the deposited data

Results flagged for a closer look

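For 5 members the diabetic library was higher than the control library on 1 day and lower on another, in neutrophil-like cells. Each day has 1 library per group, so the ratio of a single day has no test. A change of the group difference over days was tested only as a slope, above. That test called 0 members in the main fit (edgeR), and Ngp without the filter on low genes. The ratio of diabetic to control for Ngp was 14.91 on day 1 and 0.09077 on day 5. For Ltf it was 4.816 on day 1 and 0.4519 on day 3, and for Camp it was 5.638 on day 1 and 0.2763 on day 3. For Mmp8 it was 3.652 on day 1 and 0.7507 on day 5. For Pglyrp1 it was 1.891 on day 1 and 0.674 on day 7. The low ratios of Ngp, Ltf and Camp rest on 1 cell each, while the richest cell held 10.3% of the Mmp8 UMIs in the control library of day 5 and 3.08% of the Pglyrp1 UMIs in the diabetic library of day 7.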

How the results depend on the processing

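No paired analysis was possible because each group and day has 1 library and no replicate number to pair by, other than the day, which the tests of diabetic against control already hold as a factor. The cause of the changes below was not tested. Members called higher in diabetic neutrophil-like cells numbered 5 with DESeq2, 4 without a filter on low genes and 1 without the richest cells, which were chosen by the members' own UMIs so that this count is no test, against 0. Genes called there numbered 2 without scaling factors, 85 with DESeq2, 256 without the filter, 0 with at least 500 genes per cell, 2 at resolution 1.6, 2 with the members left in, 3 with high doublet scores removed and 6 without the richest cells, against 5, and 0 to 12 with a day left out. Genes with a slope over days numbered 769 with cells named singly, against 4397, and 2292 to 4966 with a library left out, when 8 to 10 members were called. For the slope differing between groups, 1 member (Ngp) and 21 genes were called without the filter and 3 genes by DESeq2, against 0, and 0 to 1 with a library left out. In whole libraries, 92 genes differed between groups by DESeq2 and 1 without the filter, against 0, and 0 to 1 with a day left out. The whole-library slope gave 2380 genes without scaling factors and 2851 by DESeq2, against 1378, and 1 to 1618 genes and 0 to 9 members with a library left out. The ratio of the summed level on day 1, 1.91, was 1.93 with T cell-like levels subtracted, 1.95 with at least 500 genes, 1.88 with cells named singly, 1.93 without high doublet scores, 1.88 without the richest cells and 2.10, 0.971, 1.44, 2.22 and 1.54 in clusters 2, 3, 4, 8 and 11. On day 3, 1.97, it was 1.92 with at least 500 genes, 2.10 without the richest cells and 2.04, 2.37, 3.57, 3.98 and 2.88 in those clusters. On day 5, 1.595, it was 1.03 with cells named singly, 1.74 without high doublet scores, 1.89 without the richest cells and 0.758, 2.69 and 1.52 in clusters 2, 3 and 4. On day 7, 1.94, it was 2.04 with at least 500 genes, 1.86 at resolution 1.6 and with the members left in, 1.58 with cells named singly, 1.87 without high doublet scores and 4.86, 2.47 and 1.49 in clusters 2, 3 and 11. The share of cells with a UMI was 63.6% for Lcn2 and 41.9% for Retnlg without thinning, against 50.6 and 32.5%. The ratio turned direction for Ltf on day 3 (1.28) and for Ngp on days 5 (6.77) and 7 (1.18) without the richest cells. It did so for Ngp on day 5 with at least 500 genes (1.40) and without high doublet scores (1.98), and for Ifitm6 (0.945) and Retnlg (0.890) on day 5 with cells named singly. Of the members' ratios under the alternatives other than single clusters, 227 moved by less than their interval, 42 by more, and 7 whose interval had lain away from 1 turned, those given above. Cd177 (0.839) and Ifitm6 (0.963) on day 7, whose intervals held 1, also went below 1 with cells named singly.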
